A study of Equus caballus with 10 samples.

Results

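Cathepsins are the proteases of the lysosome and cystatins are small proteins that block the cysteine type of them. The genes described here are 8 cathepsins and 2 cystatins, CTSB, CTSC, CTSD, CTSH, CTSK, CTSL, CTSS, CTSZ, CST3 and CST6, chosen by name from the 29196 genes of the deposited table. All 10 had a row and all 10 passed the filter on low values, which left 17992 genes for testing.

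RNA was sequenced from adult equine tenocytes, primary cells from the superficial digital flexor tendon of 5 donor horses, grown in 3D gels of bovine collagen for 14 days. One group received 100 nM PF-06650833, an inhibitor of the interleukin-1 receptor kinase IRAK-4, every day, and is called PF-06650833 alone. The other received the same PF-06650833 with 17 ng/ml IL-1β added at the medium changes. Each group has 5 libraries, 1 from each donor, so every donor stands in both groups, and the donors are called donors 1 to 5. Both groups carry the inhibitor, so the comparison shows what IL-1β changed in its presence, and libraries without the inhibitor were not analysed here. The cells are a bulk culture, in which fewer cells of a type and less RNA per cell cannot be told apart.

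Most cathepsins are made as inactive proenzymes, carry a mannose 6-phosphate tag to the lysosome and become active in its acid interior. CTSB, CTSK, CTSL and CTSS are cysteine proteases that cut inside proteins, CTSC and CTSH remove residues from the amino end and CTSZ from the carboxyl end, and CTSD uses aspartate in place of cysteine. CST3 (cystatin C) and CST6 (cystatin M/E) are secreted inhibitors. In connective tissue cathepsins digest collagen fragments in the lysosome and, when secreted, matrix around the cell. CTSK is the best known of them for cutting triple-helical collagen.

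Values are log2 expression on the authors' variance-stabilized scale, on which a gene with 0 reads has the value 3.433. Differences are IL-1β plus PF-06650833 minus PF-06650833 alone, so a positive log2 fold change is higher with IL-1β. Differences were tested with limma over all 17992 genes with Benjamini-Hochberg adjustment. Genes with an adjusted p under 0.05 were called differentially expressed if they also changed by 1 or more on the log2 scale. The adjusted p alone was read beside this rule. Estimated reads on genes ranged from 26400000 to 35900000 per library. Levels are not compared between genes, since the values are not per length.

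With IL-1β, CTSC, CTSD and CTSS were higher, CST3 and CST6 were lower, and no difference was detected for CTSB, CTSH and CTSK. Of the 10 genes, 3 were differentially expressed, where 6.68% of all tested genes were. CTSC and CTSD were higher, against 3.11% of all tested genes, and CST6 was lower, against 3.57%. At the adjusted p alone 5 passed, against 15.5% of all tested genes, 3 of them higher (7.57% of all) and 2 lower (7.89% of all), with CTSS and CST3 added. CTSL and CTSZ were lower in 5 of 5 donors. Over the 17992 tested genes and all 10 libraries, neither passed the adjusted p without a donor term. With the donor (the replicate number) as a block CTSL was differentially expressed, which made 4 of the 10 genes, where 8.26% of all tested genes were. Of these, 2 were higher (4.01% of all) and 2 lower (4.25% of all). CTSZ then passed the adjusted p alone, which made 7 of the 10 against 22.2% of all tested genes, with 3 higher (10.9% of all) and 4 lower (11.3% of all). The median log2 fold change of the 10 genes was -0.22, and that of all tested genes was -0.0063.

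**Figure D1:**
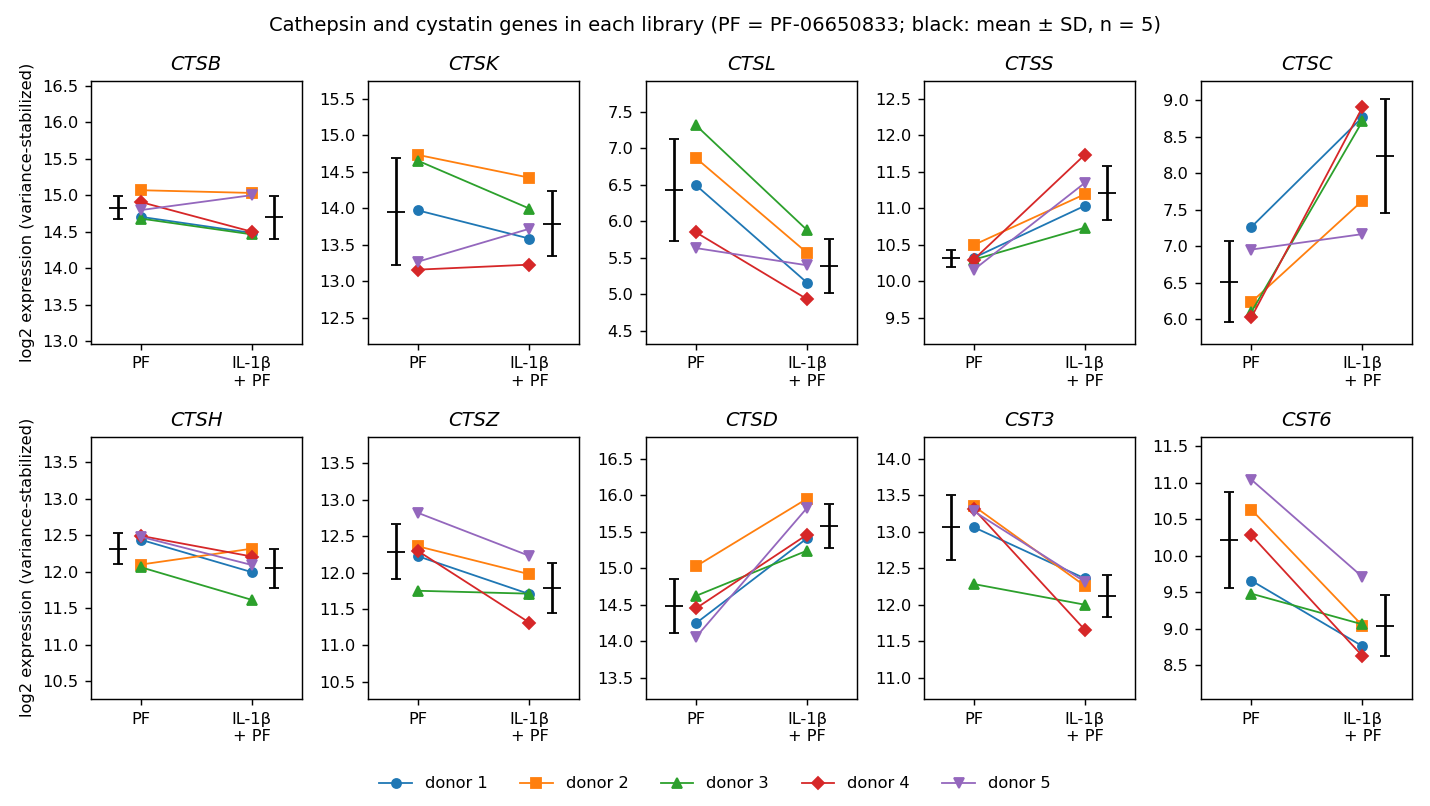
Log2 expression of the 10 genes (vertical axes, variance-stabilized log2 units, each spanning the same width) with PF-06650833 alone (PF) and IL-1β plus PF-06650833, with a line for each of the 5 donors and the mean ± SD of each group in black. All 5 lines rise for CTSC, CTSD and CTSS, all 5 fall for CTSL, CTSZ, CST3 and CST6, and lines run both ways for CTSB, CTSH and CTSK.

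Among the cysteine endopeptidases, CTSS, which degrades the invariant chain of class II molecules in antigen-presenting cells and stays active at neutral pH, was higher with IL-1β. CTSS was at 10.32, 10.50, 10.29, 10.30 and 10.15 in donors 1 to 5 with PF-06650833 alone. In the IL-1β plus PF-06650833 libraries it was at 11.03, 11.19, 10.73, 11.73 and 11.35 in the same order. The groups did not overlap, and the SD was 0.12 (n = 5) without IL-1β and 0.37 (n = 5) with it. The log2 fold change was 0.90 (standard error 0.16, adjusted p = 0.00436 from limma), an increase of 86.1% with a 95% confidence interval from 45.6% to 138%. It passed the adjusted p and fell short of the minimum fold change, except without donor 3 of IL-1β plus PF-06650833 or without both libraries of donor 3, when the log2 fold change was 1.01 each time.

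CTSK and CTSS are neighbours on chromosome 5 of a Thoroughbred reference assembly (TB-T2T), with 0 protein-coding genes between them, and they did not move alike. CTSK was at 13.97, 14.73, 14.65, 13.16 and 13.27 in donors 1 to 5 with PF-06650833 alone, and at 13.58, 14.42, 13.99, 13.22 and 13.72 with IL-1β plus PF-06650833. Donors 2 and 3 were the highest in both groups and donor 4 the lowest. Of the variance of CTSK over the 10 libraries, 85.6% lay between donors and 2.27% between the groups. Such shares, here and below, are of the sum of squares, where 5 donors take more than 2 groups by their number alone. The log2 fold change was -0.17 (95% confidence interval -0.91 to 0.57, adjusted p = 0.793 from limma), lower in 3 donors and higher in 2. With the donor as a block the interval narrowed to -0.54 to 0.21. Without the donor term the interval spans changes from -46.7% to 48.8%. The sign of the CTSK difference rested on single libraries, since it was 0.027 without donor 2 and 0.0067 without donor 3 of PF-06650833 alone.

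CTSB, an abundant lysosomal protease, was at 14.70, 15.07, 14.68, 14.91 and 14.80 with PF-06650833 alone and at 14.48, 15.03, 14.46, 14.50 and 15.00 with IL-1β plus PF-06650833. The groups overlapped over most of their range. The log2 fold change was -0.14 (standard error 0.16, 95% confidence interval -0.48 to 0.21, adjusted p = 0.627 from limma). Between donors lay 69.0% of its variance over the 10 libraries and between the groups 9.33%.

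CTSL, a potent general endopeptidase, had few reads assigned to it. It had about 29 to 105 estimated reads in a library without IL-1β and about 9 to 34 with it. It was at 6.49, 6.87, 7.32, 5.85 and 5.63 in donors 1 to 5 with PF-06650833 alone and at 5.16, 5.57, 5.88, 4.93 and 5.40 with IL-1β plus PF-06650833. CTSL was lower with IL-1β in each donor, and the groups overlapped because donors 4 and 5 started low. The log2 fold change was -1.05 (standard error 0.33, adjusted p = 0.0567 from limma), which missed the threshold. With the donor as a block the standard error was 0.22 and the adjusted p was 0.0136, and CTSL was differentially expressed. It also passed without donor 5 of PF-06650833 alone (adjusted p = 0.0351) and without donor 3 of IL-1β plus PF-06650833 (0.0455). Variance stabilization compresses differences between low values, so fold changes of genes with few reads, such as CTSL and CTSC, are understated on this scale. Whether further reads of CTSL were assigned to another transcriptome record was not tested, so its level and fold change hold for the assigned reads.

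Of the exopeptidases, CTSC, which activates the serine proteases of leukocyte granules, had the largest difference of the 10 genes. It was at 7.26, 6.23, 6.10, 6.02 and 6.95 in donors 1 to 5 with PF-06650833 alone, or about 37 to 117 estimated reads. With IL-1β plus PF-06650833 it was at 8.77, 7.62, 8.71, 8.90 and 7.16, or about 105 to 346 estimated reads. CTSC rose by 1.72 on the log2 scale (standard error 0.39, adjusted p = 0.0131 from limma), a 3.30-fold change. The donors spread widely, with differences from 0.21 in donor 5 to 2.88 in donor 4, and donor 5 with IL-1β lay below donor 1 without it. Without donor 3 (adjusted p = 0.0518) or donor 4 (adjusted p = 0.0530) CTSC missed the threshold.

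CTSH, an aminopeptidase, was at 12.44, 12.10, 12.06, 12.49 and 12.48 with PF-06650833 alone and at 11.99, 12.31, 11.61, 12.21 and 12.09 with IL-1β plus PF-06650833. It was lower in 4 donors and higher in donor 2, and its difference was not significant (log2 fold change -0.27, 95% confidence interval -0.59 to 0.05, adjusted p = 0.244 from limma). CTSZ, a carboxypeptidase, was at 12.22, 12.36, 11.75, 12.29 and 12.82 with PF-06650833 alone and at 11.71, 11.98, 11.71, 11.31 and 12.23 with IL-1β plus PF-06650833. CTSZ was lower in all 5 donors, by 0.04 in donor 3 and by 0.98 in donor 4. Its log2 fold change of -0.50 missed the threshold without a donor term (standard error 0.20, adjusted p = 0.124 from limma), and with the donor as a block the adjusted p was 0.0298 (standard error 0.13).

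The aspartic protease CTSD, which like other cathepsins digests proteins in the lysosome and also processes the precursors of cysteine cathepsins, rose in each donor. CTSD was at 14.25, 15.03, 14.62, 14.45 and 14.06 in donors 1 to 5 with PF-06650833 alone and at 15.41, 15.96, 15.24, 15.46 and 15.83 with IL-1β plus PF-06650833. The groups did not overlap. The log2 fold change was 1.10 (standard error 0.21, adjusted p = 0.00551 from limma), a 2.14-fold change, with differences from 0.62 in donor 3 to 1.77 in donor 5. Because the difference lies near the minimum of 1, CTSD fell below it without donor 5 of PF-06650833 alone (log2 fold change 0.99), with an adjusted p of 0.0167. Between the groups lay 76.8% of its variance over the 10 libraries, and 14.0% lay between donors. CTSD and CTSS were the 2 genes of the 10 whose groups did not overlap, against 12.7% of all tested genes. Both were higher, against 6.29% of all tested genes that did not overlap and were higher, and 6.41% did not overlap and were lower.

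Both inhibitors fell. CST3, the main extracellular inhibitor of cysteine cathepsins, was at 13.06, 13.36, 12.28, 13.31 and 13.28 in donors 1 to 5 with PF-06650833 alone. In the IL-1β plus PF-06650833 libraries it was at 12.36, 12.26, 12.00, 11.66 and 12.32. Donor 3 was low without IL-1β, and its value lay within the range of the other group. CST3 fell by 0.94 on the log2 scale (standard error 0.21, adjusted p = 0.0133 from limma), a change of -47.9%. Without donor 3 of PF-06650833 alone the log2 fold change was -1.13 (adjusted p = 0.00137), past the minimum fold change. Without both libraries of donors 1, 2 or 5 CST3 missed the adjusted p (0.0518, 0.0627 and 0.0542).

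CST6, which inhibits legumain as well as cathepsins, was at 9.66, 10.63, 9.48, 10.28 and 11.04 with PF-06650833 alone and at 8.76, 9.04, 9.06, 8.63 and 9.71 with IL-1β plus PF-06650833. Donor 5 was the highest in both groups, and its value with IL-1β lay above those of donors 1 and 3 without it. The mean of CST6 differed by -1.18 on the log2 scale (limma, standard error 0.30, adjusted p = 0.0236). It was lower in 5 of 5 donors, by 0.42 to 1.66. CST6 was differentially expressed in 5 of the 10 fits without 1 library and in 2 of the 5 without 1 donor, with adjusted p-values up to 0.111. It missed the threshold without donors 2, 4 or 5 of PF-06650833 alone (adjusted p = 0.0576, 0.0514 and 0.0503) and without donors 1 or 2 of IL-1β plus PF-06650833 (0.0606 and 0.0526). With the donor as a block its adjusted p was 0.00451.

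**Figure D2:**
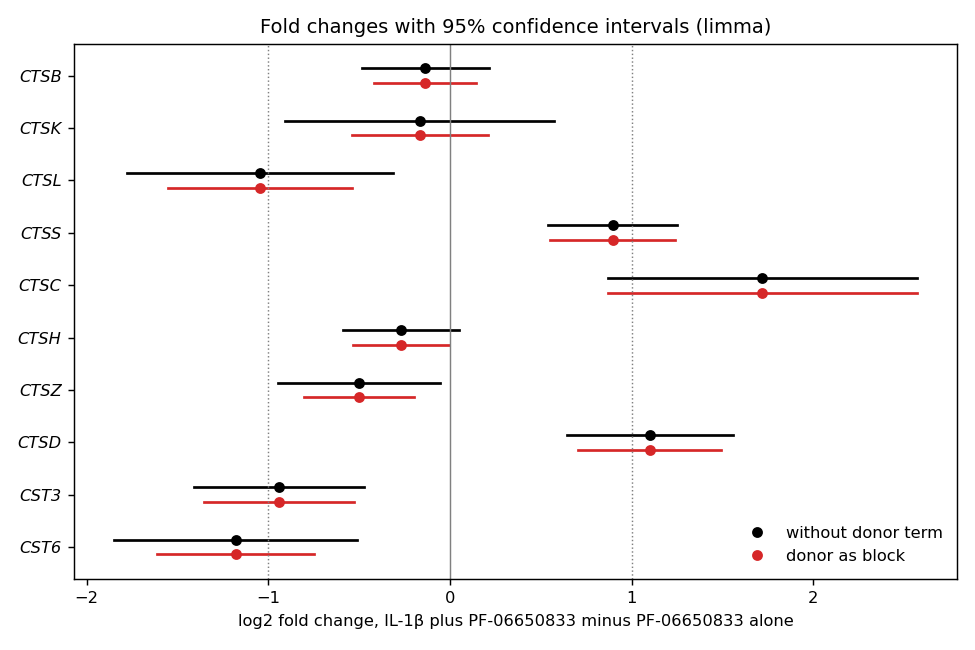
Log2 fold change of the 10 genes (horizontal axis, IL-1β plus PF-06650833 minus PF-06650833 alone) with 95% confidence intervals from limma, without a donor term in black and with the donor as a block in red. Dotted lines mark the minimum fold change. The intervals of CTSC, CTSD and CTSS lie above 0 and those of CST3, CST6, CTSL and CTSZ below it in both fits.

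The donors did not all respond to the same degree. Donor 4 had the largest difference of the 5 donors for 6 of the 10 genes (CTSB, CTSC, CTSS, CTSZ, CST3 and CST6). Donor 3 had the smallest for 5 (CTSD, CTSS, CTSZ, CST3 and CST6) and the largest for CTSH, CTSK and CTSL. Donor 5 had the smallest for CTSC and CTSL and the largest for CTSD. These ranks come from 1 library per donor and group and carry no test.

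Each cathepsin was also set against CST3 in the same library. Since CST3 itself fell, a gene with no change of its own widens its gap to CST3 by 0.94 on the log2 scale, and the median over the other 17991 tested genes was 0.93. The gap of CTSC widened by 2.66 (SD of the donor differences 1.23, n = 5), that of CTSS by 1.84 (SD 0.88) and that of CTSD, which cystatins do not inhibit, by 2.04 (SD 0.74). For these 3 genes the gaps did not overlap between the groups and were larger with IL-1β in 5 of 5 donors, where 27.8% of the other tested genes had gaps that did not overlap and were larger. CTSB (0.81), CTSK (0.77), CTSH (0.67) and CTSZ (0.44) lay below the value of a gene with no change, so their wider gaps restate the fall of CST3. For CTSL the mean change was -0.10, higher in 2 donors and lower in 3, and it was -0.53 on the scale of log2(normalized count + 1). All of these changes share the CST3 values, so they are not independent of each other, and they are given with no test.

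**Figure D3:**
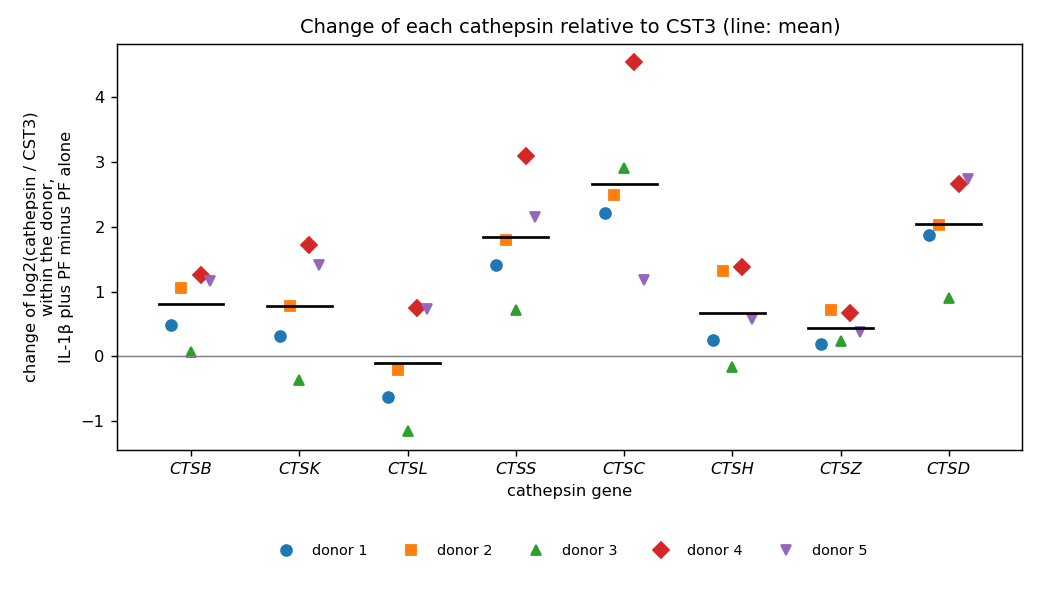
Change of the log2 ratio of each cathepsin to CST3 within a donor (vertical axis, log2 units, IL-1β plus PF-06650833 minus PF-06650833 alone), with 1 point per donor and the mean as a line. All 5 points of CTSB, CTSS, CTSC, CTSZ and CTSD lie above 0 and those of CTSL on both sides of it, where a gene with no change of its own would have a mean of 0.94.

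The genes with the profile most like that of a differentially expressed cathepsin or cystatin were found from the root mean square difference of centred log2 values over the 10 libraries. For CTSD they were ANTXR2 (0.145), NFKB1, an NF-κB subunit (0.187), and MOV10 (0.190). For CST6 they were HSPB8, a small heat shock protein (0.153), IL17RE (0.205) and RELL1 (0.244). For CTSC the nearest were farther off, with PDE4D at 0.487, DDX58, which encodes the RNA sensor RIG-I, at 0.501 and NOTUM at 0.517.

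Of 18 further cathepsins, cystatins and cystatin-domain proteins, 14 were matched by name and 6 passed the filter on low values. None (0) was differentially expressed by limma, where 6.68% of all tested genes were. At the adjusted p alone 2 passed, both higher, against 7.57% of all tested genes in that direction. These were CTSA, a carboxypeptidase that also stabilizes lysosomal glycosidases (log2 fold change 0.55, adjusted p = 0.0440), and the intracellular inhibitor CSTA (0.91, adjusted p = 0.0328, at most about 30 estimated reads, and 1.98 on the scale of log2(normalized count + 1)). Neither passed without donor 1 or donor 4 of PF-06650833 alone or without donor 1 or donor 2 of IL-1β plus PF-06650833 (0 genes each). CTSA passed the adjusted p in 3 of the 10 fits without 1 library and in 0 of the 5 without 1 donor. For CSTA these numbers were 5 of 10 and 1 of 5. CTSF and CTSO were at -0.16 and 0.11 with adjusted p-values of 0.454 and 0.748.

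The vacuolar ATPase, the proton pump that acidifies the lysosome and so allows cathepsins to work, had 21 tested subunits and accessory genes. Of these, 12 were higher at the adjusted p alone, 0 were lower and 9 did not pass, where 7.57% of all tested genes were higher. None (0) reached the minimum fold change, and the 21 genes had a median of 0.45 on the log2 scale, against -0.0063 over all tested genes. The smallest adjusted p-values were those of ATP6V1A (log2 fold change 0.79, adjusted p = 0.00285 from limma), ATP6V0B (0.98, adjusted p = 0.00678) and ATP6V1E1 (0.71, adjusted p = 0.00696). The number was also 12 with the donor as a block. It was 7 without donor 2 of PF-06650833 alone and 7 without donor 1, 2 or 5 of IL-1β plus PF-06650833, and leaving out a whole donor gave 3 (without donor 5), 4 (without donor 2), 5 (without donor 1) and up to 12 genes.

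Other lysosomal hydrolases did not share a direction. Of 36 tested, 1 was differentially expressed, against 6.68% of all tested genes. It was GLB1, the lysosomal beta-galactosidase (log2 fold change -1.03, adjusted p = 5.84e-04 from limma). GLB1 fell under the minimum fold change without donor 4 of PF-06650833 alone (-0.99) or donors 1 or 5 of IL-1β plus PF-06650833 (-0.97 and -0.96). At the adjusted p alone 4 were higher and 2 lower, against 7.57% and 7.89% of all tested genes, and the median log2 fold change was -0.086. The higher ones included NEU1 (0.71, adjusted p = 0.0107), which encodes lysosomal sialidase, and AGA was lower (-0.54, adjusted p = 0.00990). LGMN, the asparaginyl protease legumain that processes cathepsins and is inhibited by CST3 and CST6, had a log2 fold change of 0.41 (adjusted p = 0.0797 from limma), and with the donor as a block its adjusted p was 0.0484.

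Of 18 tested genes of delivery to the lysosome, 1 was differentially expressed, against 6.68% of all tested genes. It was SORT1, the sorting receptor sortilin. SORT1 was at 10.19, 11.05, 10.56, 11.03 and 10.99 in donors 1 to 5 in the absence of IL-1β and at 8.66, 8.92, 9.46, 8.59 and 8.89 with it. Its groups did not overlap, as for 12.7% of all tested genes. Its log2 fold change was -1.86 (limma, adjusted p = 3.86e-04). At the adjusted p alone the adaptor genes GGA1 (0.40, adjusted p = 0.00671) and AP1S1 (0.73, adjusted p = 0.0320) were higher. AP1S1 passed in 3 of the 10 fits without 1 library and in 2 of the 5 without 1 donor, with adjusted p-values up to 0.144. Of the 18 genes, 3 passed at the adjusted p alone, against 15.5% of all tested genes, and 5 did with the donor as a block, against 22.2%.

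Of 15 tested genes of the lysosomal membrane and of the transcription factors that drive lysosomal genes, 3 were differentially expressed, against 6.68% of all tested genes. TFEB, the best known regulator of lysosomal genes, had a log2 fold change of -1.07 (limma, adjusted p = 0.00848), and its relative MITF fell by 1.34 (adjusted p = 0.00447). SQSTM1, the autophagy receptor p62, rose by 1.10 (adjusted p = 0.0101). TFEB was lower and SQSTM1 higher in 5 of 5 donors. Without donor 4 of PF-06650833 alone 1 of the 3 was still differentially expressed, since TFEB (-0.96) and SQSTM1 (0.97) fell under the minimum fold change. TFEB also did without donor 5 of IL-1β plus PF-06650833 (-0.95). SQSTM1 missed the adjusted p without both libraries of donor 1 (0.0678) or donor 5 (0.0650). The transcription factor TFE3 was higher in 5 of 5 donors and did not pass (log2 fold change 0.25, adjusted p = 0.0661 from limma). With the donor as a block its adjusted p was 0.0486. At the adjusted p alone 2 of the 15 genes were higher and 3 lower, against 7.57% and 7.89% of all tested genes.

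CTSS serves class II antigen presentation, and of 10 tested genes of that pathway 3 were differentially expressed, all higher, where 3.11% of all tested genes were higher. CD74, the invariant chain, was at 3.43, 5.64, 3.43, 3.92 and 3.43 in donors 1 to 5 with PF-06650833 alone, or about 0 to 23 estimated reads. With IL-1β plus PF-06650833 CD74 was at 6.55, 8.10, 6.95, 10.11 and 6.81, or about 60 to 765 estimated reads. The groups did not overlap, and the log2 fold change was 3.73 (standard error 0.68, adjusted p = 0.00467 from limma). The class II chain genes DRA (2.48, adjusted p = 0.0146) and DQA (2.04, adjusted p = 0.0354) were higher on about 11 to 222 estimated reads per library with IL-1β. The chain genes DRB (0.43, adjusted p = 0.819 from limma) and DQB (0.70, adjusted p = 0.591) did not pass. Without IL-1β they had about 1 to 400 and 1 to 146 estimated reads. CIITA of the same list did not pass either (1.48, adjusted p = 0.104). On the scale of log2(normalized count + 1) the differences were 6.27 for CD74, 4.89 for DRA and 3.85 for DQA, and with 0.5 added in place of 1 they were 6.95, 5.68 and 4.30. These sizes depend on what is added, since some libraries without IL-1β held 0 reads of these 3 genes. For the same reason the 3 genes passed the filter on low values only with their IL-1β libraries counted. DQA missed the threshold without donors 1, 2, 3 or 5 of PF-06650833 alone or donors 1 or 2 of IL-1β plus PF-06650833, with adjusted p-values from 0.0591 to 0.0846. CTSS and CD74 were both highest in donor 4 with IL-1β.

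**Figure D4:**
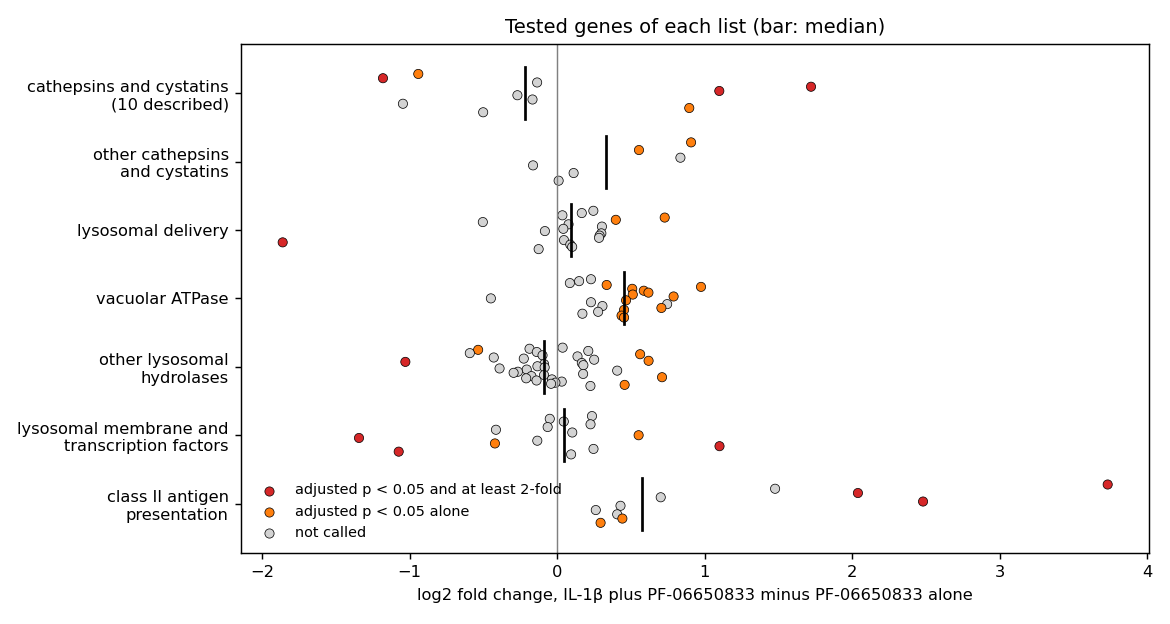
Log2 fold change (horizontal axis) of each tested gene of 7 lists (rows), with the median of the list as a bar and colours for the calls from limma. The vacuolar ATPase genes lie mostly above 0 with a median of 0.45, and the 10 cathepsins and cystatins spread to both sides.

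Cathepsins are abundant in macrophages and osteoclasts, so the markers of these cells were read in the same libraries. The panleukocyte gene PTPRC had at most about 3 estimated reads in any library and CSF1R at most 1. CD14, a monocyte receptor for lipopolysaccharide that carries most of the higher sums of the list, was at 10.72, 8.37, 3.43, 3.43 and 3.43 in donors 1 to 5 without IL-1β, or about 0 to 1463 estimated reads. With IL-1β it was at 10.73, 9.50, 3.43, 8.75 and 10.27, or about 0 to 1367 estimated reads. CD14 was higher in 4 of 5 donors, at 0 reads in donor 3 of both groups, and did not pass the test (log2 fold change 2.66, standard error 1.72, adjusted p = 0.340 from limma). AIF1, TYROBP, ADGRE1 and DCSTAMP were at 0 reads in all 10 libraries, and ACP5, the osteoclast phosphatase, had at most 3. Of 18 markers 8 could be tested and 1 was differentially expressed, against 6.68% of all tested genes. It was CD68, higher with IL-1β, which encodes a lysosomal membrane protein (log2 fold change 1.70, adjusted p = 0.00795 from limma, and 0.0527 without donor 5). With the donor as a block 2 were, against 8.26% of all tested genes, when LAPTM5 was also called, as lower (log2 fold change -1.67). The summed normalized count of the list ranged from 92.7 to 1886 without IL-1β and from 194 to 1960 with it. The part of these cells in the results was not tested. The endothelial list summed to between 16.3 and 51.5 without IL-1β and between 5.12 and 30.7 with it, with 0 of its 5 tested genes called (0 also at the adjusted p alone).

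Of 12 tested tenocyte and fibroblast markers 4 were differentially expressed, against 6.68% of all tested genes (3.57% of all were lower). All 4 were lower, among them SCX (log2 fold change -3.24), MKX (-2.85) and COMP (-3.63), with adjusted p-values from limma of 6.11e-04, 0.00554 and 0.00794. COMP missed the threshold without donor 2 (0.0509) or donor 5 (0.0517). With the donor as a block 6 were, against 8.26% of all tested genes. The median log2 fold change of the 12 genes was -1.29, and 3 of them had a positive one. These were DCN (1.01, adjusted p = 0.268 from limma), PDGFRA (0.46, adjusted p = 0.466) and LUM (0.33, adjusted p = 0.693), and DCN was higher in 5 of 5 donors. TNMD was at 0 reads in all 10 libraries, while the collagen genes COL1A1 and COL1A2 were at 18.74 and 18.74 with PF-06650833 alone. With IL-1β they were at 17.36 and 17.46, lower in 5 of 5 donors (log2 fold change -1.38 and -1.28), which missed the threshold without a donor term (adjusted p = 0.0682 and 0.0614 from limma) and passed with the donor as a block (0.0147 and 0.0169). The summed normalized count of these markers lay between 1016010 and 1586970 without IL-1β and between 323330 and 1326480 with it. The part of these marker differences in those of the cathepsins and cystatins was not tested.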

How the data were processed

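The authors mapped reads to the horse transcriptome (EquCab3.0) with Salmon (version 1.8, with GC-bias correction) and imported them with tximport. The deposited values are on a log2 scale, normalized between libraries and variance-stabilized. The transformation is not named in the sources used here and was recognised from the lowest value of 3.433, shared by all libraries. The 10 columns were matched to samples by library name, and donors by the line name in the titles.

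The filter kept genes above that lowest value in 5 or more libraries. They were tested with limma (version 3.58.1, in R version 4.3.3, with trend), in a main design of the 2 groups only, since the study names no donor term, and in another with the donor (replicate number) as a block. Pairing comes from the labels. Deviations from the group mean correlated across genes at 0.367 to 0.506 in the 5 pairs of libraries from 1 donor, and at -0.266 to 0.0869 in the 20 pairs from different donors. All adjusted p-values are Benjamini-Hochberg values over all 17992 tested genes.

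The transformation was inverted to normalized counts, and the size of 1 read was read from the steps between low counts. Between 67.3% and 84.4% of the low values lay within 0.15 of a whole read, so reads are estimates and no count test was run. The fit was tested on simulated data. From each list the 3 differentially expressed genes with the smallest adjusted p were named (where fewer, then those at the adjusted p alone), with LGMN, CD74, ACP5 and TFEB whatever their result, the genes nearest in profile, and the defining markers of other cells. CTSF, CTSO, TFE3, LAPTM5, CD14, CIITA, DRB, DQB, DCN, PDGFRA, LUM, COL1A1 and COL1A2 were named after their values were seen. The genes and lists were chosen with earlier results of these data known. The thresholds are those the study used. Alternatives were other thresholds, filters, scales, normalizations and variance models, and leaving out each library or donor. Names were looked up in RefSeq, where all 10 genes matched. Without a donor term, p-values rest on the spread between cultures of the 5 donors within a group. With the donor as a block, they rest on the spread of the differences within donors.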

Additional observations from a re-analysis of the deposited data

Results flagged for a closer look

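The 10 cathepsins and cystatins and 32 other named genes gave 84 groups of 5 libraries. Of these groups 6 held a library far from the other 4, where chance gives about 4.2. The genes named after their values were seen were not among the 32. With PF-06650833 alone, CST3 was at 12.28 in donor 3 against 13.06 to 13.36 in the other donors, on about 3770 estimated reads. DDX58 was at 10.56 in donor 1 against 9.90 to 10.02, and MOV10 at 10.22 in donor 2 against 9.58 to 9.64. Donor 2 also had CD74 at 5.64 against 3.43 to 3.92 (about 23 reads) and DRA at 4.81 against 3.43 in the others (about 8 reads). With IL-1β plus PF-06650833, DQA was at 8.36 in donor 4 against 4.93 to 5.88.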

How the results depend on the processing

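Directions of CTSB, CTSC, CTSD, CTSH, CTSL, CTSS, CTSZ, CST3 and CST6 held under the other scales, the other normalizations and array weights. They also held in all 15 fits without a library or donor. The donor block, the stricter threshold, the other filters and the other trend settings leave the log2 fold change as it is, so direction could not change there. What caused each change named here was not tested, and some of these fits also hold fewer samples or genes. With the donor as a block (replicate block) CTSL was called at -1.05 (adjusted p = 0.0136), as it was among genes above the lowest value in all libraries (-1.05). The block also brought CTSZ and LGMN past the adjusted p alone, raised the calls at the adjusted p alone from 3 to 5 in delivery to the lysosome, and changed no other call of the 10 genes. At an adjusted p below 0.01, 1 of the 10 genes was called and 2 at the adjusted p alone, CTSC (1.72) and CST6 (-1.18) missed it, and 1 class II gene was called. Among genes above the lowest value in all libraries 6 class II genes remained and 0 were called. CD74, DRA and DQA were left out there, since each held 0 reads in a library without IL-1β. Of the further cathepsins and cystatins 1 was called with log2(normalized count + 1), log2(normalized count + 0.5) or array weights. Of the vacuolar ATPase genes 1 was called with median centring or array weights, and 0 other hydrolases with median centring. Over the fits without a library or donor, the 10 genes gave 1 (without donor 4) to 5 calls (without donor 3 of IL-1β plus PF-06650833), and 3 to 6 at the adjusted p alone. The calls ranged from 0 to 2 for the further cathepsins, from 0 to 1 for the vacuolar ATPase, from 0 to 1 for other hydrolases, from 1 to 3 for the membrane list and from 2 to 3 for class II genes. The log2 fold changes ranged from 1.43 to 2.10 for CTSC, from 0.93 to 1.236 for CTSD, from 0.76 to 1.01 for CTSS, from -1.13 to -0.76 for CST3, from -1.37 to -0.97 for CST6 and from -1.25 to -0.82 for CTSL. CTSK ranged from -0.37 to 0.03, above 0 without donor 2 (0.027) or donor 3 (0.0067) of PF-06650833 alone. In the 10 fits without 1 library CTSL relative to CST3 ranged from -0.36 to 0.31, above 0 without donor 3 of PF-06650833 alone (0.31) or donor 1 of IL-1β plus PF-06650833 (0.0136), and it was -0.53 with log2(normalized count + 1). Depth limits CTSL, CTSC, CSTA and the class II genes, which rest on few reads. Whether CTSL also had reads under another transcriptome record was not tested.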
